A study of Mus musculus with 18 samples.

Results

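The genes described here are 43 genes of the lysosome and of the V-ATPase, its proton pump, measured by RNA-seq of poly(A) RNA in cultured mouse leukaemia cells. They are 27 named lysosomal genes and 24 genes whose names start with Atp6v, kept where the mean over all 18 libraries reached 1 FPKM (fragments scaled to transcript length and library size). Of these 51 candidates 43 passed, out of 23899 genes in the table and 11550 that passed the same filter. All 27 named genes and 16 Atp6v genes passed. The members just inside the limit were Lgmn at a mean of 1.01 FPKM and Mitf at 1.27 FPKM, and the closest one outside was Atp6v0e2 at 0.218 FPKM. The other genes below it were Atp6v0d2, Atp6v1b1, Atp6v1c2, Atp6v1e2, Atp6v1fnb, Atp6v1g3 and the pseudogene Atp6v0c-ps1.

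All cells carried Cas9 and MLL-AF9, a fusion oncoprotein that drives acute myeloid leukaemia, came from a mouse primary leukaemia and grew in medium with interleukin-3. Cells with 1 of 4 guide RNAs against Jmjd1c (named e21.1, e20.1, e12.4 and e12.3) were compared with cells that carried a Renilla guide and with cells labelled mock, 3 libraries in each of the 6 groups. Jmjd1c encodes a nuclear protein of the jumonji domain family, and Renilla luciferase has no gene in mouse cells. Targeted domains, the treatment of mock cells and whether replicates were separate cultures are not in the labels, so p-values measure the spread between these libraries, which may be technical.

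Lysosomes are acidic compartments in which hydrolases break down proteins, lipids, glycans and nucleic acids that arrive by endocytosis, phagocytosis and autophagy. The V-ATPase, built of a membrane sector V0 and a cytosolic sector V1, pumps protons into them, and glycosylated membrane proteins such as LAMP1 and LAMP2 line them. The factors of the MiT family (Tfeb, Tfe3, Tfec and Mitf) bind E-box motifs in promoters of many lysosomal genes, and monocytes and macrophages are rich in lysosomes.

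Promoter sequences are shown because several members hold this E-box, which the rule did not use. The core CACGTG, which reads the same on both strands, was searched in RefSeq promoters (GRCm38.p6, 250 bases before to 50 after the start), and 36 of the 43 members had one. It was present in 9 of these 36 (25%), against 8.09% of 27025 genes with a promoter in the same table. The extended letters GTCACGTG, or CACGTGAC on the other strand, which contain the core, were in 6 of 36 (16.7%), against 2.55% of all genes. Windows of 3 members that rose with the guides (Lamp1, Gla, Lgmn) and of 2 that were not called (Gaa, Atp6v0b) follow, 5′ to 3′ on the strand of the gene, with each core in capitals. They lie at chr8:13159070-13159181 (plus strand), chrX:134601164-134601255 (minus), chr12:102439106-102439171 (minus), chr11:119267793-119267858 (plus) and chr4:117887312-117887395 (minus).
Lamp1: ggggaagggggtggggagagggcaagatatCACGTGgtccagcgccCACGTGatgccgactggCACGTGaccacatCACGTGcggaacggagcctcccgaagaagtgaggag
Gla: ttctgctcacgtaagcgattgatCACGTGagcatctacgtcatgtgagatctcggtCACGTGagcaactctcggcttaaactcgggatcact
Lgmn: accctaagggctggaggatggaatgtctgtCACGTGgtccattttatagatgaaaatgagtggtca
Gaa: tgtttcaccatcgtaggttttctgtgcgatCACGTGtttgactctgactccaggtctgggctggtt
Atp6v0b: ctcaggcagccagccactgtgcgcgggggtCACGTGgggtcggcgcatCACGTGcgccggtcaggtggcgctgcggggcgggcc

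Lamp1 held 4 cores, which begin 61, 45, 28 and 15 bases before the start site. Gla and Atp6v0b held 2 each, and Lgmn and Gaa 1 each. The core was in 3 of 14 promoters of members called higher against Renilla (Gla, Lamp1, Lgmn) and in 6 of 22 of members not called (Atp6v0b, Atp6v0d1, Atp6v0e, Atp6v1a, Gaa, Mcoln1). Among V-ATPase members 4 of 10 promoters held it, and among the others 5 of 26. The extended letters were in 3 of 14 promoters of members called higher and in 3 of 22 of members not called. Among V-ATPase members 2 of 10 promoters held the extended letters, and among the others 4 of 26. A match describes the letters and is not a bound site.

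Depth was estimated at 20.8 to 182.8 M reads per library (median 32.0), at which 1 FPKM of a transcript of 2000 bases stands for 42 to 366 reads. Jmjd1c averaged 64.1 ± 9.24 FPKM over the 12 guide libraries, against 78.3 ± 12.26 FPKM over the 3 Renilla libraries and 74.5 ± 2.69 FPKM in mock (SD, n = 3). All 12 guide libraries lay below the Renilla mean, and the exact two-sided permutation test over 455 arrangements gave p = 0.0747. Editing of the locus cannot be read from its transcript level. For the labelled cell type 8 myeloid leukaemia genes were looked up, among them Ptprc, Spi1 and Hoxa9, and all 8 passed the filter. As 11550 of all 23899 genes passed it, this shows that the genes were detected and cannot identify the cell type. Replicate 3 of e12.3 and replicate 3 of e21.1 stand apart from the other guide libraries, so counts are also given without them. Their estimated depths, 66.9 and 75.5 M reads, were also the highest of the guide libraries, with the others at 22.8 to 43.5 M. Whether depth bears on their values was not tested. In bulk RNA, fewer cells of a type and less RNA per cell cannot be told apart.

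With the 4 Jmjd1c guides together, many lysosomal enzymes and membrane proteins rose, and no gene of the pump passed the test. Against Renilla, limma called 15 of 43 members higher (34.9%) and 0 lower, where 7.77% of all 11550 tested genes were called higher and 3.21% lower. Called means a limma p under 0.05 after Benjamini-Hochberg adjustment across the 11550 genes, and differences are on the log2(FPKM + 1) scale, which understates changes of low genes. The calls were 8 of 14 enzymes and activators, 5 of 8 membrane proteins, 2 of 5 regulators and 0 of 16 V-ATPase genes. Median log2 differences were 0.32 for enzymes, 0.38 for membrane proteins, 0.14 for regulators and 0.08 for the V-ATPase, beside -0.03 over all tested genes. Lgmn and Mitf averaged under 1 FPKM in both controls and passed the filter only through the guide libraries. Lgmn is 1 of the 8 enzymes called and Mitf 1 of the 2 regulators. Without Lgmn and Mitf 13 of 41 members were called.

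Against mock, limma called 12 members higher (27.9%) and 0 lower, where 6.84% of all tested genes were called higher and 2.16% lower. These were 5 enzymes, 5 membrane proteins, 2 regulators and 0 V-ATPase genes, or 10 of 41 members without Lgmn and Mitf. The comparisons share the 12 guide libraries, and all 12 genes called against mock were also called against Renilla. In 12 members all 12 guide libraries lay above all 6 control libraries, where 4.92% of all tested genes showed this. In 19 members, 10 of them enzymes, all 12 lay above the Renilla mean, where 10.3% of all tested genes did. Without Lgmn and Mitf these counts were 10 and 17 of 41 members. Renilla against mock gave 0 members called by limma and 0 at an unadjusted p under 0.05 (0% of all tested genes called).

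**Figure D1:**
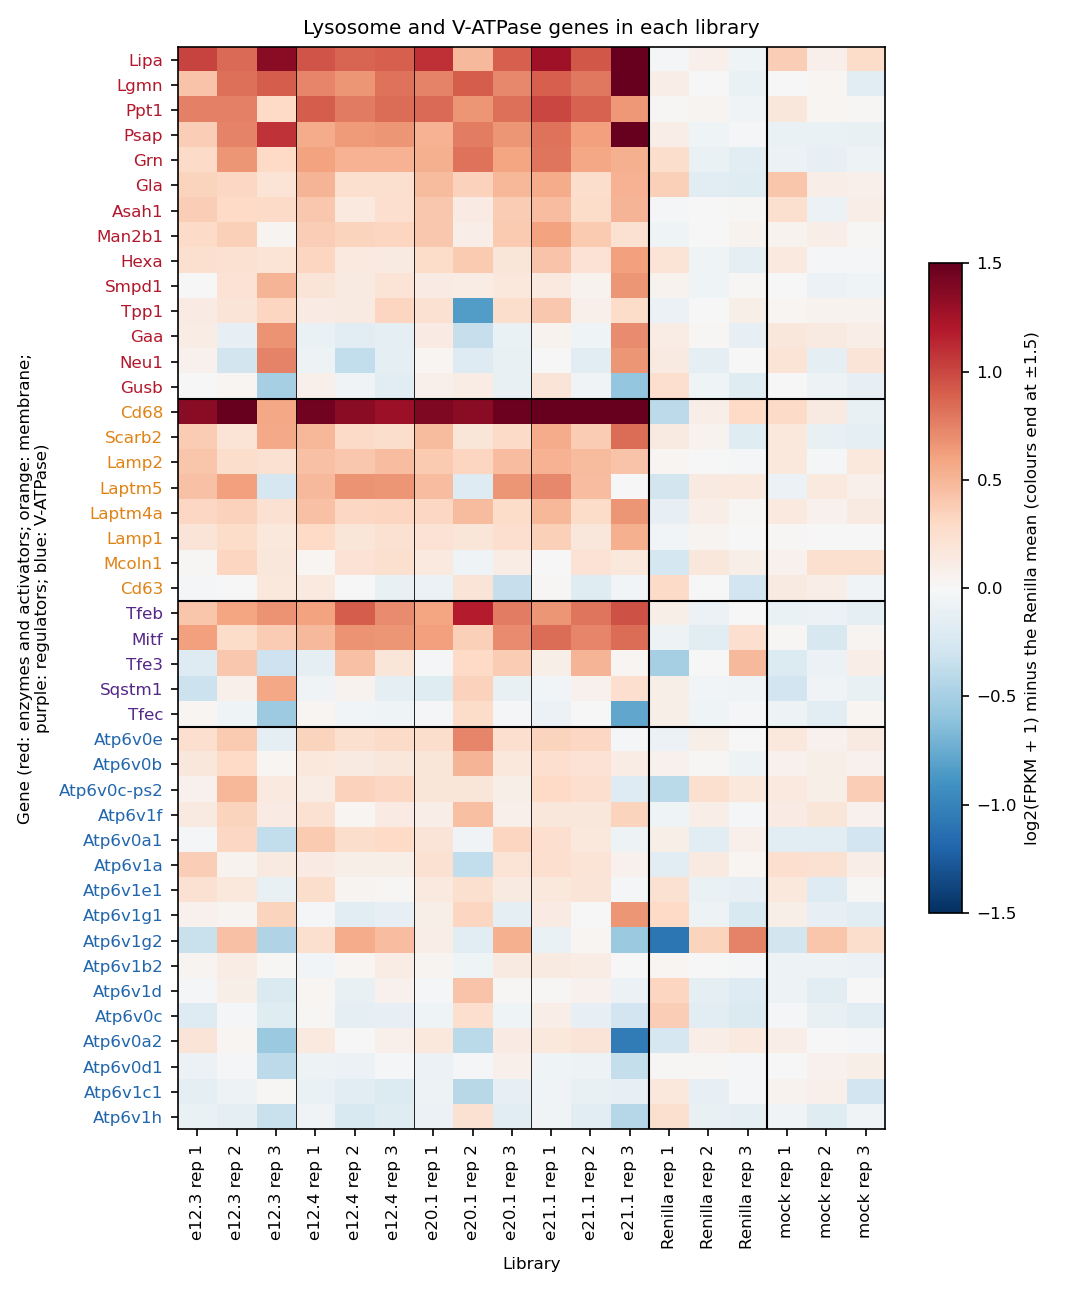
Each row is a member and each column a library, with the colour giving log2(FPKM + 1) minus the Renilla mean (red higher, blue lower, colours ending at ±1.5). Rows are grouped by role, and guide libraries stand left of Renilla and mock. Cd68, Lipa, Ppt1 and Tfeb are red across all 12 guide libraries, while most V-ATPase rows stay pale.

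**Figure D2:**
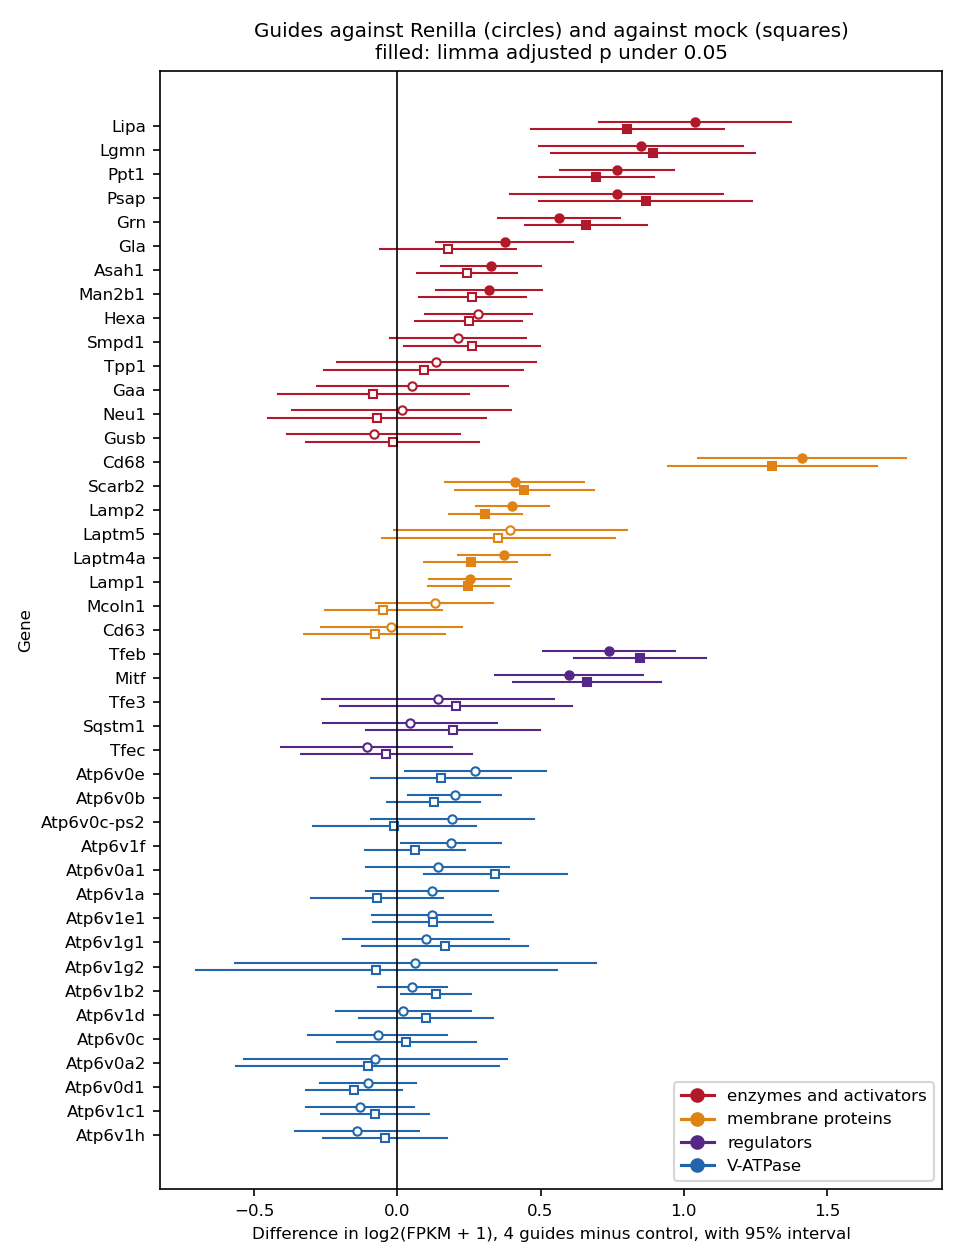
Points give the difference in log2(FPKM + 1) of the 4 guides minus Renilla (circles) or minus mock (squares), with 95% intervals from limma. Filled points have an adjusted p under 0.05: 15 members against Renilla and 12 against mock, all to the right of 0.

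Among the enzymes Lipa had the largest difference on the log2(FPKM + 1) scale. Lipa, the lysosomal acid lipase that hydrolyses cholesteryl esters (GRCm38 chromosome 19, 34492318-34527474, minus strand), ran from 17.9 over a median of 24.8 to 48.4 FPKM in the 12 guide libraries. It stood at 12.35, 13.2 and 11.9 FPKM in Renilla and at 16.4, 13.2 and 15.3 FPKM in mock. The groups did not overlap, although the highest value, in e21.1 replicate 3, stood well above the rest. The log2 difference was 1.04 against Renilla (SE 0.16, limma adjusted p = 3.5e-04) and 0.80 against mock (adjusted p = 0.0034). Ppt1, palmitoyl-protein thioesterase 1, removes fatty acids from proteins (chromosome 4, 122836242-122859175, plus strand). It ran from 47.1 over 67.2 to 77.6 FPKM with the guides, against 38.6, 39.1 and 36.6 FPKM in Renilla and 43.0, 39.0 and 38.5 FPKM in mock. Again no library overlapped, and the difference was 0.77 against Renilla (SE 0.09, adjusted p = 4.8e-05) and 0.69 against mock.

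The precursors of sphingolipid activators and of granulins rose as well. Psap, prosaposin, whose fragments help hydrolases reach sphingolipids (chromosome 10, 60277627-60302597, plus strand), ran from 175 over 214 to 455 FPKM with the guides. It stood at 144, 129 and 132 FPKM in Renilla and at 126, 126 and 124.3 FPKM in mock. All guide libraries were above all controls, by 0.77 against Renilla (SE 0.17, limma adjusted p = 0.0089) and 0.87 against mock (adjusted p = 0.0040). Without Renilla replicate 2 the Psap call was lost (0.73, adjusted p = 0.0518). Grn, progranulin (chromosome 11, 102430315-102437048, plus strand), ran from 127 over 154 to 184 FPKM, against 126, 97.4 and 92.3 FPKM in Renilla and 97.6, 95.8 and 98.7 FPKM in mock. Its lowest guide library lay just above Renilla replicate 1, and the difference was 0.56 against Renilla (SE 0.10, adjusted p = 0.0014) and 0.66 against mock.

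Lgmn, the asparaginyl endopeptidase legumain (chromosome 12, 102394084-102439813, minus strand), was low everywhere. It ran from 0.739 over 1.25 to 3.39 FPKM with the guides, against 0.379, 0.287 and 0.204 FPKM in Renilla and 0.294, 0.315 and 0.151 FPKM in mock. The groups did not overlap, and the difference was 0.85 against Renilla (SE 0.17, limma adjusted p = 0.0032). The guide mean of Lgmn was 477% of its Renilla mean, the largest such ratio of the members, which the log2(FPKM + 1) scale understates. Since Lgmn passed the filter only through the guide libraries, its call and lack of overlap are not independent of the filter.

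A further 3 enzymes rose against Renilla but were not called against mock. Gla, alpha-galactosidase A, ran from 19.3 over 21.3 to 24.8 FPKM with the guides, against 21.5, 14.7 and 14.5 FPKM in Renilla and 22.5, 17.9 and 17.6 FPKM in mock. Replicate 1 of both controls lay inside the guide range. The Gla difference was 0.37 against Renilla (limma adjusted p = 0.042) and 0.18 against mock (adjusted p = 0.41, 95% interval -0.06 to 0.41). That call was lost in 18 of 32 alternatives, with values of 0.29 (adjusted p = 0.218) and 0.28 (0.21) without Renilla replicate 2 or 3. Leaving out e12.3 replicate 1 or 2, any e12.4 library, e20.1 replicate 1 or 3, e21.1 replicate 1 or 3 or mock replicate 2 or 3 gave Gla adjusted p from 0.0513 to 0.0631.

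Asah1, acid ceramidase, ran from 75.8 over 87.8 to 99.2 FPKM with the guides, against 68.7, 69.6 and 70.1 FPKM in Renilla and 82.2, 65.2 and 74.4 FPKM in mock. Mock replicate 1 lay inside the guide range. The Asah1 difference was 0.33 against Renilla (limma adjusted p = 0.016), and the adjusted p was 0.0685, 0.0664 and 0.0566 without Renilla replicates 1, 2 and 3. Against mock it was 0.24 (adjusted p = 0.082), and 0.27 (0.0344) without e20.1 replicate 2.

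Man2b1, lysosomal alpha-mannosidase (chromosome 8, 85083270-85098282, plus strand), had the highest FPKM of the enzymes. It ran from 239 over 294 to 351 FPKM with the guides, against 221, 232 and 241 FPKM in Renilla and 240, 248 and 235 FPKM in mock. The lowest guide library, e12.3 replicate 3, lay among the controls and the other 11 above them. The Man2b1 difference was 0.32 against Renilla (limma adjusted p = 0.026), with adjusted p of 0.122, 0.089 and 0.0577 without Renilla replicates 1, 2 and 3. Against mock it was 0.26 (adjusted p = 0.080), and it was called without e12.3 replicate 3 (0.29, 0.0363), e20.1 replicate 2 (0.29, 0.0291) or e21.1 replicate 3 (0.28, 0.0381).

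The other 6 enzymes were not called in either comparison. Hexa, the alpha subunit of beta-hexosaminidase, averaged 177 ± 18.04 FPKM with the guides (SD, n = 12), against 146 ± 19.1 FPKM in Renilla and 149 ± 9.9 FPKM in mock (SD, n = 3 each). Its difference of 0.28 against Renilla just missed the threshold (limma adjusted p = 0.051, 95% interval 0.10 to 0.47) and passed it without e21.1 replicate 2 (0.31, 0.0254) or Renilla replicate 1 (0.39, 0.0191). Smpd1, acid sphingomyelinase, averaged 13.7 against 11.6 FPKM in Renilla (0.21, interval -0.03 to 0.45), and Tpp1, tripeptidyl peptidase 1, 47.5 against 42.4 FPKM (0.14, interval -0.21 to 0.48). Gaa (acid alpha-glucosidase), Neu1 (sialidase 1) and Gusb (beta-glucuronidase) stood close to 0, at 0.05, 0.01 and -0.08 against Renilla. Their intervals together ran from -0.38 to 0.40. Gaa averaged 35.3 FPKM with the guides against 33.3 FPKM in Renilla, Neu1 41.9 against 40.4 FPKM, and Gusb 158 against 167 FPKM.

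Of the membrane proteins, Cd68, the heavily glycosylated marker of macrophage lysosomes (chromosome 11, 69664213-69666153, minus strand), had the largest difference of all 43 members on the log2(FPKM + 1) scale. It ran from 12.7 over 23.6 to 33.4 FPKM with the guides, against 6.0, 8.83 and 10.3 FPKM in Renilla and 10.2, 9.08 and 7.49 FPKM in mock. The lowest guide value was e12.3 replicate 3, the other 11 were at 21.4 FPKM or more, and no control overlapped them. The mean of 24.0 ± 4.85 FPKM (SD, n = 12) was 287% of the Renilla mean of 8.37 ± 2.18 FPKM (n = 3). The log2 difference was 1.41 against Renilla (SE 0.17, limma adjusted p = 4.2e-05) and 1.31 against mock (adjusted p = 9.6e-05).

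The LAMP proteins, the main glycoproteins of the lysosomal membrane, rose by less. Lamp2 (chromosome X, 38401357-38456454, minus strand) ran from 122.6 over 140 to 150 FPKM with the guides, against 106, 105 and 102 FPKM in Renilla and 116, 103 and 116 FPKM in mock. The groups did not overlap, and the difference was 0.40 against Renilla (SE 0.06, limma adjusted p = 3.1e-04) and 0.31 against mock (adjusted p = 0.0033, and 0.0536 without mock replicate 2). Lamp1 (chromosome 8, 13159161-13175338, plus strand) ran from 223 over 233 to 289 FPKM, against 194, 205 and 200 FPKM in Renilla and 202, 199 and 200 FPKM in mock. Its groups did not overlap either, and the difference was 0.25 against Renilla (adjusted p = 0.022) and 0.25 against mock (adjusted p = 0.029). With 1 library fewer in a control, these Lamp1 calls were lost: adjusted p was 0.0945, 0.0626 and 0.0724 without Renilla replicates 1, 2 and 3, and 0.107, 0.133 and 0.134 without mock replicates 1, 2 and 3.

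Laptm4a, a transmembrane protein of late endosomes and lysosomes, ran from 61.1 over 64.8 to 82.3 FPKM with the guides, against 47.6, 55.6 and 52.6 FPKM in Renilla and 57.4, 54.3 and 57.2 FPKM in mock. The groups did not overlap, by 0.37 against Renilla (limma adjusted p = 0.0042) and 0.26 against mock (adjusted p = 0.047). The Laptm4a call against mock was lost in 19 of 31 alternatives. Without mock replicates 1, 2 and 3 its adjusted p was 0.132, 0.223 and 0.148, and without e12.3 replicate 1 or 2, any e12.4 library, e20.1 replicate 1 or 2, e21.1 replicate 1 or Renilla replicate 2 or 3 it lay between 0.0503 and 0.0745. Scarb2, the receptor that carries glucocerebrosidase to lysosomes, ran from 8.20 over 9.60 to 13.6 FPKM, against 7.92, 7.45 and 6.15 FPKM in Renilla and 8.11, 6.53 and 6.33 FPKM in mock. No library overlapped, but the lowest guide value was close to the highest control. The Scarb2 difference was 0.41 against Renilla (adjusted p = 0.029) and 0.44 against mock (0.022). It was lost without Renilla replicate 2 (0.44, 0.0767) or 3 (0.32, 0.168) and without mock replicate 2 (0.40, 0.137) or 3 (0.38, 0.158).

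The 2 members with the highest FPKM, Laptm5 and Cd63, were not called. Laptm5, a lysosomal protein of blood cells, ran from 324 over 537 to 637 FPKM with the guides, against 318, 424 and 427 FPKM in Renilla and 362, 428 and 406 FPKM in mock. Of its 12 guide libraries 9 lay above all controls and 3 among them. The difference was 0.39 against Renilla (limma adjusted p = 0.22, 95% interval -0.01 to 0.80), and it was called without the 2 libraries that stand apart (0.51, adjusted p = 0.0323). Cd63, a tetraspanin of late endosomes and granules, ran from 317 over 400 to 460 FPKM, against 490, 403 and 329 FPKM in Renilla and 441, 430 and 387 FPKM in mock. Its groups overlapped (-0.02, interval -0.27 to 0.23). Mcoln1, the calcium channel of the lysosomal membrane, averaged 17.4 ± 1.48 FPKM with the guides (n = 12), against 15.9 ± 2.57 FPKM in Renilla and 18.04 ± 1.28 FPKM in mock (SD, n = 3 each; 0.13 against Renilla, interval -0.07 to 0.34).

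Of the 4 MiT factors, which act on lysosomal promoters, Tfeb and Mitf rose and Tfec and Tfe3 were not called. Tfeb (chromosome 17, 47737030-47792419, plus strand) ran from 8.4 over 10.4 to 15.01 FPKM with the guides, against 6.53, 5.64 and 6.08 FPKM in Renilla and 5.61, 5.67 and 5.40 FPKM in mock. All guide libraries lay above all controls, and the difference was 0.74 against Renilla (SE 0.11, limma adjusted p = 2.7e-04) and 0.85 against mock (adjusted p = 8.0e-05). Mitf, the melanocyte and mast cell factor of the family, ran from 1.05 over 1.63 to 2.02 FPKM, against 0.605, 0.497 and 1.01 FPKM in Renilla and 0.706, 0.426 and 0.739 FPKM in mock. The groups came close at Renilla replicate 3 without overlap, and the difference was 0.60 against Renilla (adjusted p = 0.0040). Since Mitf passed the filter only through the guide libraries, its call and lack of overlap are not independent of the filter.

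Tfec, a family member of myeloid cells and the most abundant of them per length, ran from 47.9 over 80.9 to 100.5 FPKM with the guides, against 87.8, 78.9 and 81.8 FPKM in Renilla and 78.4, 74.2 and 84.3 FPKM in mock. Tfe3 ran from 5.83 over 8.33 to 11.1 FPKM, against 5.0, 7.53 and 10.9 FPKM in Renilla and 6.35, 7.01 and 8.09 FPKM in mock. Both overlapped their controls, with differences against Renilla of -0.11 (95% interval -0.41 to 0.19) and 0.14 (-0.27 to 0.55). Sqstm1, the autophagy receptor p62 and a known target of these factors, averaged 104 ± 19.4 FPKM with the guides (n = 12), against 99.95 ± 5.63 FPKM in Renilla and 89.95 ± 7.23 FPKM in mock (SD, n = 3 each). It was not called (0.04, interval -0.26 to 0.35).

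**Figure D3:**
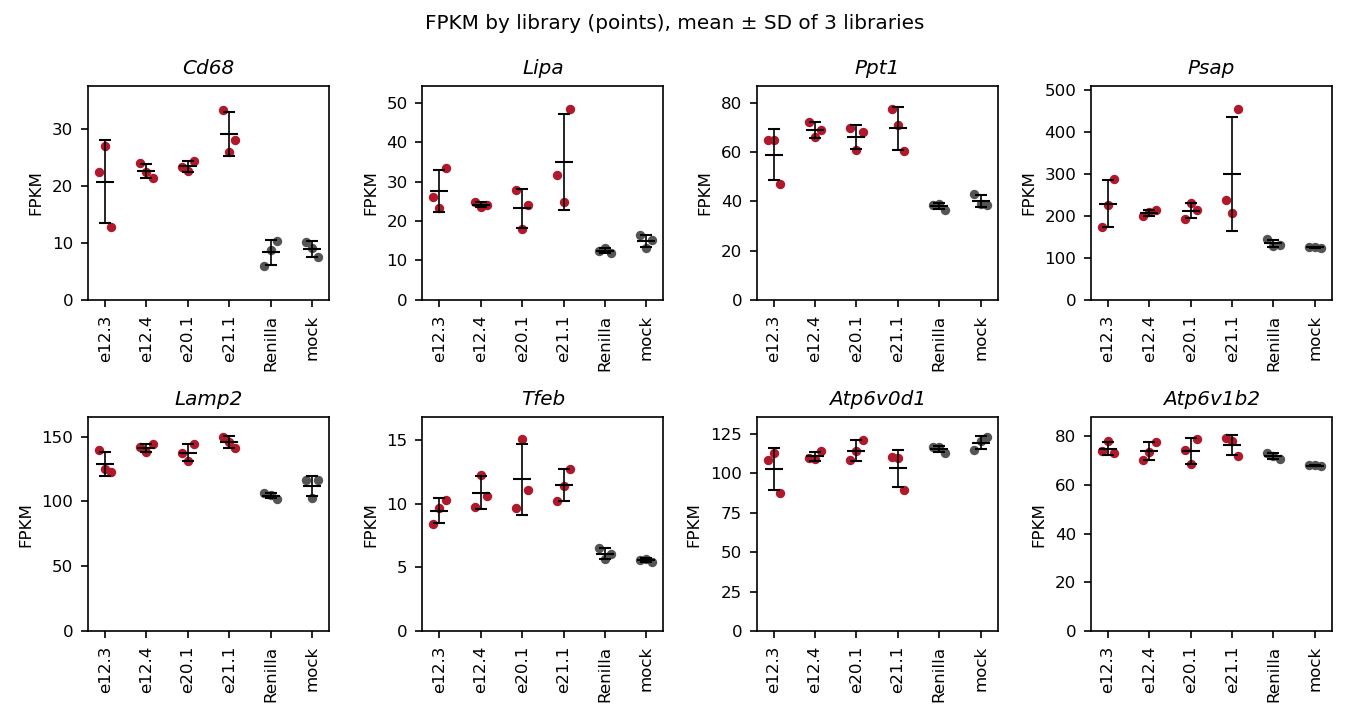
FPKM in each library for 8 members, with bars for the mean ± SD of the 3 libraries of a group and axes that start at 0. In Cd68, Lipa, Ppt1, Psap, Lamp2 and Tfeb every guide library (red) is above every Renilla and mock library (grey), while in Atp6v0d1 and Atp6v1b2 the groups overlap.

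None of the 16 V-ATPase genes (1 of them the processed pseudogene Atp6v0c-ps2) was called by limma with the 4 guides together. An unadjusted p under 0.05 was reached by 3 of them against Renilla and 2 against mock. Of all 11550 tested genes 2816 and 2455 reached it. V-ATPase differences against Renilla ran from -0.14 to 0.27, and all 95% intervals lay between -0.57 and 0.69. In the catalytic V1 sector, Atp6v1a (the subunit that hydrolyses ATP) averaged 71.1 ± 8.24 FPKM with the guides, against 65.1 ± 6.8 FPKM in Renilla and 74.2 ± 3.9 FPKM in mock. Its partner Atp6v1b2 averaged 74.6 ± 3.59 FPKM, against 71.9 ± 1.27 FPKM in Renilla and 67.8 ± 0.228 FPKM in mock (SD, n = 12, 3 and 3), and its interval of -0.07 to 0.17 was the narrowest of the 16. The stalk and stator subunits Atp6v1d, Atp6v1e1, Atp6v1f and Atp6v1g1 stood at 0.02, 0.12, 0.19 and 0.10 against Renilla. Atp6v1c1 and Atp6v1h, subunits involved in holding the sectors together, stood at -0.13 and -0.14 against Renilla and at -0.08 and -0.04 against mock. In each, 11 of 12 guide libraries lay below the Renilla mean, but guides and controls overlapped. Renilla ran from 55.3 to 72.2 FPKM in Atp6v1h, and the guides from 44.8 to 71.4 FPKM. The low neuronal form Atp6v1g2 (3.91 FPKM with the guides, 4.18 in Renilla) had the widest interval, from -0.57 to 0.69.

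In the V0 sector, Atp6v0c, the proton-carrying ring subunit, ran from 185 over 210.9 to 268 FPKM with the guides, against 293, 202 and 194 FPKM in Renilla and 221, 209 and 201.2 FPKM in mock. Its reads may be shared with the processed pseudogene Atp6v0c-ps2, which averaged 65.9 FPKM with the guides against 58.3 FPKM in Renilla, so both values are uncertain. Atp6v0e, a small V0 subunit, ran from 168 over 223 to 307 FPKM, against 173, 196 and 183 FPKM in Renilla and 204, 193 and 202 FPKM in mock. In Atp6v0e 10 guide libraries lay above all controls, and the other 2, those that stand apart, stood below most of them. The Atp6v0e difference was 0.27 against Renilla (limma adjusted p = 0.16, 95% interval 0.03 to 0.52), and 0.34 (0.018) without those 2 libraries. Atp6v0b, a second ring subunit, averaged 185 ± 16.3 FPKM, against 160 ± 8.37 FPKM in Renilla and 169 ± 1.71 FPKM in mock (0.20, adjusted p = 0.12), and 0.23 (0.0431) without them. Atp6v0d1, which links the ring to V1, averaged 108 ± 9.7 FPKM, against 115 ± 2.01 FPKM in Renilla and 119 ± 4.16 FPKM in mock (-0.10, interval -0.27 to 0.07).

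Atp6v0a1 and Atp6v0a2 encode a subunits, which help form the proton path and direct the pump to compartments. Atp6v0a1 averaged 26.9 ± 4.05 FPKM with the guides, against 24.1 ± 2.43 FPKM in Renilla and 20.8 ± 1.083 FPKM in mock. It was the sole V-ATPase gene called with any single guide, by e12.4 against mock (0.52, limma adjusted p = 0.048). With the 4 guides together Atp6v0a1 stood at 0.34 against mock (adjusted p = 0.090), called without e12.3 replicate 3 (0.38, 0.0196). Atp6v0a2 ran from 9.94 to 24.9 FPKM with the guides, against 18.03 to 24.04 FPKM in Renilla (-0.08, interval -0.54 to 0.38).

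Each guide alone gave a positive difference for all 15 members called against Renilla. The mean of the same 4 guides selected these members, so their signs are not separate support. Against Renilla, limma called 5 members higher with e12.3 (3.03% of all tested genes were called higher), 9 with e12.4 (5.57%), 9 with e20.1 (4.61%) and 15 with e21.1 (7.06%). Against mock the counts were 5 with e12.3 (2.82%), 8 with e12.4 (5.22%), 7 with e20.1 (4.41%) and 13 with e21.1 (5.91%). Without Lgmn and Mitf the counts in the same guide order were 5, 7, 7 and 13 of 41 against Renilla, and 5, 6, 5 and 11 against mock. No member was called lower with any guide. Same-numbered libraries of e12.4 correlated above 0.1 with Renilla (0.236 to 0.331) and with mock (0.204 to 0.234) in all 3 pairs. With the replicate number as a block, e12.4 had 10 members higher against Renilla (7.22% of all tested genes) and 10 against mock (6.65%). The members gained were Asah1 against Renilla (0.27, limma adjusted p = 0.0409), and Lipa (0.66, 0.0259) and Psap (0.72, 0.043) against mock. Cd68, Lipa, Ppt1, Lamp2 and Tfeb were called with all 4 guides against Renilla, and Cd68, Ppt1, Grn and Tfeb with all 4 against mock. The Cd68 difference against Renilla was 1.18 with e12.3, 1.36 with e12.4, 1.41 with e20.1 and 1.71 with e21.1. Psap stood at 0.73, 0.62, 0.65 and 1.06 in the same order, called with e21.1. A test of the differences among the 4 guides called 0 of 43 members (0% of all tested genes called), with 0 members at an unadjusted p under 0.05 and a lowest limma adjusted p of 0.985.

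In the 2 libraries that stand apart, several enzymes were higher and several pump genes lower than in the other guide libraries. Gaa was at 53.6 FPKM in replicate 3 of e12.3 and 54.9 FPKM in replicate 3 of e21.1, against 25.8 to 36.1 FPKM in the other 10 guide libraries. Neu1 was at 68.2 and 64.2 FPKM there, against 30.9 to 42.0 FPKM, and Smpd1 at 16.9 and 18.9 FPKM, against 11.6 to 13.6 FPKM. Psap (287 and 455 FPKM, against 175 to 238) and Lipa (33.5 and 48.4 FPKM, against 17.9 to 31.6) also stood above the others. In all, 5 of 14 enzymes lay above the other 10 libraries in both and 2 below, namely Ppt1 and Gusb. Of 16 V-ATPase genes 8 lay below in both and 1, Atp6v1g1, above. Of all tested genes 22.1% lay above in both and 16.2% below, and these libraries were picked because they stand apart. Atp6v0d1, for example, was at 87.2 and 89.6 FPKM there, against 108 to 121 FPKM.

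Without these 2 libraries, limma called 19 members higher and 0 lower against Renilla: 9 enzymes, 6 membrane proteins, 2 regulators and 2 V-ATPase genes. Of all tested genes 11% were then called higher, so the V-ATPase count of 2 of 16 is near that share. Without Lgmn and Mitf 17 of 41 members were called. The members added were Hexa, Laptm5, Atp6v0b and Atp6v0e. Against mock 14 were called higher (9.95% of all tested genes), among them 1 V-ATPase gene, Atp6v0a1. The mean over the 16 V-ATPase genes, as log2(FPKM + 1) minus the Renilla mean, was -0.121 and -0.129 in the 2 libraries and 0.039 to 0.156 in the other 10 guide libraries. It lay between -0.014 and 0.010 in Renilla and between 0.004 and 0.029 in mock. The V-ATPase difference over all 12 guide libraries averages values of opposite sign.

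Most tested genes of a monocyte list rose in the same libraries, and their part in the lysosomal result was not tested. This monocyte and macrophage list without lysosomal enzymes held 28 genes, of which 22 were tested. Of these limma called 15 higher and 0 lower against Renilla (median 0.83) and 12 and 0 against mock (median 0.66). Of all tested genes 7.77% and 6.84% were called higher. Among the list genes called, Itgax averaged 1.40 FPKM with the guides, 0.223 FPKM in Renilla and 0.209 FPKM in mock. Itgax passed the filter only through the guide libraries, so its call is not independent of the filter. The genes not called against Renilla were Cd14, Ccr2, Fn1, Tlr4, Ms4a6c, Ly6c2 and Fcgr1, with differences from 0.30 (Cd14) to -0.32 (Fcgr1). Ly6c2 averaged 654 FPKM with the guides, against 768 FPKM in Renilla (-0.25). No listed marker was at 0 in all libraries, and the summed level was 1522 to 1953 FPKM with the guides, against 1308 to 1515 FPKM in Renilla and 1352 to 1442 FPKM in mock. Csf1r, a growth factor receptor of macrophages, averaged 11.8 ± 2.76 FPKM with the guides (n = 12), against 2.25 ± 0.177 FPKM in Renilla (n = 3). Without the 2 libraries the list had 16 called higher against Renilla (median 0.92). Library by library, the mean difference of the enzymes (0.246 to 0.727 with the guides) did not follow that of the monocyte list (0.239 to 1.078) throughout. In replicate 3 of e12.3 the enzymes stood at 0.461 and the monocyte list at 0.239, its lowest value with any guide, while e21.1 replicate 3 had the highest enzyme value (0.727) with a monocyte value of 0.700. Membrane proteins stood at 0.230 to 0.572, lowest in e12.3 replicate 3.

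**Figure D4:**
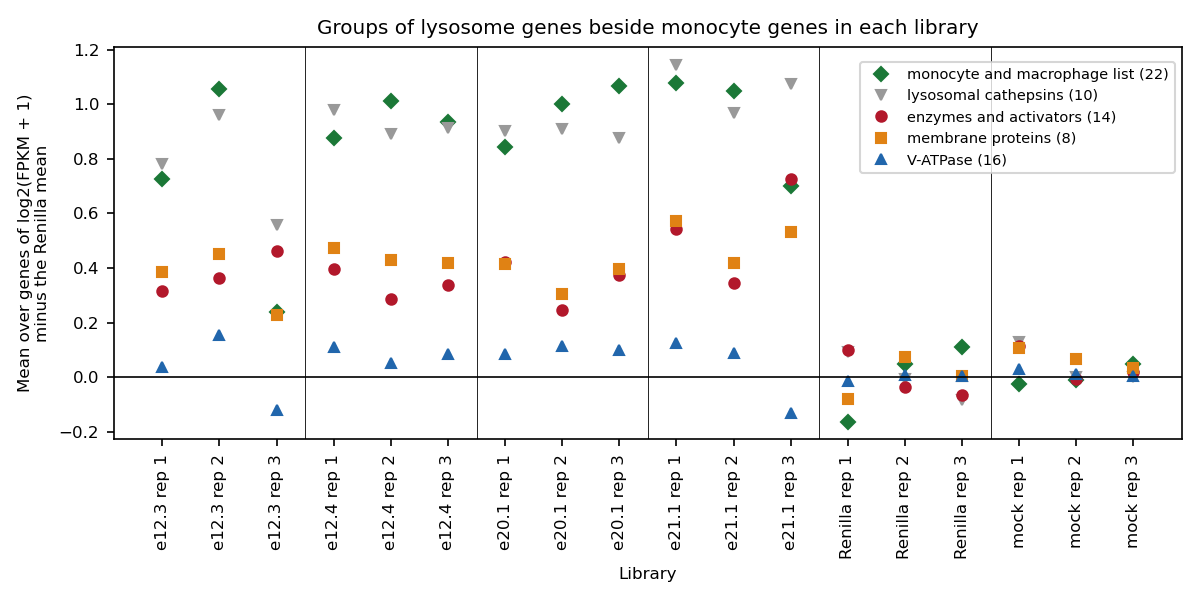
Mean over the genes of each group of log2(FPKM + 1) minus the Renilla mean, in each library, for monocyte genes, cathepsins, enzymes, membrane proteins and the V-ATPase. Monocyte genes, cathepsins, enzymes and membrane proteins lie above 0 in all 12 guide libraries, and the V-ATPase stays between -0.129 and 0.156.

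Markers of other cells moved too, with their part in the lysosomal result not tested. Among all tested genes 7.77% were called higher against Renilla and 3.21% lower, or 11% higher and 817 of 11550 lower without the 2 libraries. Of 10 mature neutrophil genes 4 were called higher against Renilla, with a summed level of 619.1 to 1438 FPKM with the guides, against 433.5 to 495.5 FPKM in Renilla. Mmp8, 1 of these 4, averaged 4.03 FPKM with the guides, 0.278 FPKM in Renilla and 0.175 FPKM in mock. It passed the filter only through the guide libraries, so its call is not independent of the filter. Without the 2 libraries 6 of the 10 were called higher. The mean difference of this list was highest in those libraries, at 2.065 and 1.911. Of 6 primary granule genes 4 were called lower (median -0.87, summed level 1720 to 5069 FPKM with the guides, against 4504 to 5431 FPKM in Renilla), and 5 without the 2 libraries. Their mean difference was 0.039 and -0.453 in the 2 libraries, and -1.435 to -0.627 in the others. Of 7 mast cell, basophil and eosinophil genes limma called 0 (median -0.49), and 3 lower without the 2 libraries. At an unadjusted p under 0.05 were 5 of the 7, and 2816 of all 11550 tested genes. The list had a mean difference of -1.008 and -1.102 in the 2 libraries. The erythroid and megakaryocyte list and the lymphoid list had 2 tested genes each, with 0 called by limma and 0 at an unadjusted p under 0.05. Of 2 tested stromal and endothelial genes 1 was called higher, Pecam1, which leukocytes also express.

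Further lysosomal genes outside the 43 were counted by list, where 7.77% of all tested genes were called higher against Renilla and 6.84% against mock. All 10 tested lysosomal cathepsins, the proteases of the compartment, were called higher against Renilla (median 0.57), and 8 against mock. Ctsc, which activates granule proteases, averaged 152 ± 19.2 FPKM with the guides (n = 12), against 73.1 ± 3.87 FPKM in Renilla (n = 3). Of 23 other enzymes and activators 6 were called higher and 0 lower against Renilla (median 0.16), and 3 higher and 0 lower against mock. Of 25 other membrane proteins and transporters 4 were called higher against Renilla (median 0.16) and 4 against mock. Among them was Slc11a1, the metal transporter NRAMP1 of phagocytes (3.01 ± 1.078 FPKM, against 0.974 ± 0.316 FPKM in Renilla and 0.896 FPKM in mock). Slc11a1, and Slc15a3, which was called against mock only, passed the filter only through the guide libraries. Their calls are therefore not independent of the filter. Without the 2 libraries the counts against Renilla were 10 of 10 cathepsins higher, 7 enzymes higher and 1 lower, and 6 membrane proteins higher and 1 lower. Of all 11550 tested genes 11% were then called higher and 817 lower.

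Other lists hold genes that sort cargo to lysosomes, assemble the pump or sense nutrients there. Beside them, 7.77% of all tested genes were called higher against Renilla and 3.21% lower, so a count of 1 of 17 or 18 is near that share. Of 18 genes of sorting to lysosomes limma called 1 higher (Lyst, the Chediak-Higashi protein; median -0.01), and of 17 genes of nutrient signalling at the lysosome 1 higher (Fnip2, a folliculin partner; median -0.07). Of 10 accessory and assembly factors of the V-ATPase 3 were called higher against Renilla (Ncoa7, Rogdi and Dmxl2, with differences of 0.47, 0.32 and 0.29; median 0.02) and 2 against mock. Of 25 autophagy genes 4 were called higher and 1 lower against Renilla (median 0.08). Against mock 0 sorting genes were called. Nutrient signalling then had 0 higher and 1 lower, and autophagy 2 higher and 0 lower. Of all tested genes 6.84% were called higher against mock and 2.16% lower. Wipi1, a phosphoinositide-binding protein of early autophagosomes, averaged 49.0 ± 7.38 FPKM with the guides (n = 12), against 27.3 ± 2.85 FPKM in Renilla (n = 3; 0.81, limma adjusted p = 7.9e-05). Without the 2 libraries the counts against Renilla were 2 higher and 1 lower for sorting, 1 and 0 for nutrient signalling, 4 and 0 for V-ATPase accessory factors and 4 and 1 for autophagy. The share of all tested genes was then 11% higher, with 817 of 11550 lower.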

How the data were processed

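The deposited values are FPKM that the authors computed, as 1 table (23899 genes, 18 libraries), with 15 tables of single libraries that differ from it by at most 3.3e-06 FPKM. Per the submitters' processing notes, bcl2fastq 2.22.0.422, Salmon 0.13.0, R 3.5.3, DESeq2 1.22.1 and mm10 were used. The transcript annotation is not given in the sources used here. Per the labels' protocols, poly(A) RNA was made into NEBNext Ultra II Directional libraries. The files hold no counts, so tests for counts were not used.

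The 11550 genes whose FPKM averaged at least 1 were fitted with limma-trend (limma 3.58.1, R 4.3.3) on log2(FPKM + 1), with 6 group means and no covariate. The 4 guides were weighted equally, p-values were adjusted by Benjamini-Hochberg over all tested genes, and the fit was tested on simulated data. The simulated noise was independent between genes and libraries, unlike the shared deviations of some libraries here. That test therefore cannot show that the calls hold in these data. Depth was estimated from the spacing of low FPKM values in 1473 single-transcript genes (2000 bases or longer), where at least 80.4% of low values in each library lay within 0.1 read of a whole number. Positions come from GENCODE vM21 (GRCm38), which holds 98.92% of the names, and promoters from RefSeq. Tables and figures were made in Python 3.11.15 (matplotlib 3.10.9, numpy 2.4.6, pandas 2.3.3).

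Values by library or by range were given for members called against Renilla or mock, for the 6 members with the highest mean and for the 4 MiT factors. From each other list up to 3 genes with the smallest p were eligible. The monocyte genes not called, the genes behind small counts and those in the libraries that stand apart were picked after their values were seen. Members and lists were chosen with earlier results of these data known, and list counts were not tested. Alternatives were pseudocount 0.1, no filter, a stricter filter (at least 5 FPKM in 3 libraries), the groups of the comparison alone, a replicate block, each library or guide left out, upper-quartile scaling, array quality weights, Renilla and mock as 1 control, and the libraries that stand apart left out. Leaving out Renilla replicate 1 with e20.1 replicate 2 was chosen after seeing the data.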

Additional observations from a re-analysis of the deposited data

How the results depend on the processing

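No called member changed direction in the alternatives run. With array quality weights, which trust some libraries more than others, members called higher numbered 23 against Renilla and 21 against mock (1 lower against mock, Atp6v0d1). Of all 11550 tested genes 2433 were then called higher and 2431 lower against Renilla, and 1812 and 1681 against mock. Of the V-ATPase genes 5 were called in each comparison, 5 higher against Renilla and 4 higher and 1 lower against mock. Single guides had 18 (e12.3), 21 (e12.4) and 21 (e20.1) against Renilla and 12, 17 and 19 against mock (2 lower with e12.4). The cause was not tested. Without the 2 libraries that stand apart, 2 V-ATPase genes were called against Renilla and 1 against mock, and without guide e12.3 1 against mock. With no filter e12.3 had 3 members higher against mock. With only the groups of the comparison, where fewer samples set the spread, e12.3 had 1 against Renilla and 0 against mock, e12.4 had 14 against mock (1 lower), and e21.1 had 4 against Renilla and 5 against mock. No share of all tested genes is given for these single-guide counts, so they are not read as results about the members.

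With 1 library left out, the 4 guides gave 9 to 16 members higher against Renilla (9 without Renilla replicate 2) and 8 to 14 against mock, with 0 to 1 V-ATPase gene against mock. The ranges against Renilla and mock were 2 to 7 and 0 to 7 for e12.3, 6 to 10 and 4 to 10 for e12.4, 5 to 10 and 4 to 9 for e20.1, and 11 to 15 and 9 to 15 for e21.1. With the 4 guides together, 633 to 1011 of all 11550 tested genes were called higher against Renilla in these fits, and 501 to 907 against mock. Calls over all genes changed between these fits too, and no such share is given for the single guides. Of the called members 9 of 15 against Renilla and 8 of 12 against mock held in every alternative in which they were tested. These include Lgmn and Mitf, which the stricter filter left out, so they were not tested there. Correlations of same-numbered libraries ran from -0.25 to 0.76, and 26 of 45 were above 0.1. All 3 pairs were above 0.1 in 4 of 15 pairs of groups (e12.3 with e21.1, e12.4 with Renilla, e12.4 with mock, and Renilla with mock), so the numbers were not taken as pairing the 4 guides with a control. In 60 of 90 cases a library correlated best with its own number in another group. With the replicate block the members called higher were 16 against Renilla and 13 against mock, gaining Hexa (adjusted p = 0.0328) and Asah1 (0.0174) and losing none, beside 1138 higher and 671 lower of all genes against Renilla and 977 and 483 against mock (1809 and 1460 in all). Over all genes, 1268 were called against Renilla and 1040 against mock (897 and 790 higher), against 4864 and 3493 (2433 and 1812 higher) with weights, 2085 and 1878 (1268 and 1149 higher) without the 2 libraries, 717 against mock without guide e12.4 and 580 to 649 against mock without a mock library. Renilla and mock as 1 control gave 2109 (1268 higher). Without Renilla replicate 1, 2 or 3 the counts were 814, 828 and 931. With 3 libraries in a group, V-ATPase intervals reach from -0.57 to 0.69.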
